A study of Mus musculus with 25 samples.

Results

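The cluster of the microRNA genes Mir183, Mir96 and Mir182 was followed through its 3 guide arms, mmu-miR-182-5p, mmu-miR-183-5p and mmu-miR-96-5p, in vesicles that mouse liver cells shed (small extracellular vesicles, sEVs). The prefix mmu, for mouse, is left out below. The members were found by name and are 3 of the 1493 entries of the deposited count table. All 3 had enough counts to be among the 391 entries that were tested. The libraries came from wild-type C57BL/6J mice of 5 ages, 1 week, 6 weeks, 6 months, 12 months and 14 months, with 5 mice and 5 libraries at each age and no treatment in any group. Per the labels the sexes were balanced, with no sex stated for single mice, and vesicles were collected by ultracentrifugation after enzymatic opening of the tissue, so vesicles of any cell of the liver or its blood can be present. The labelled batch is the age itself, so age and batch cannot be told apart. In bulk vesicle RNA, fewer vesicles from a cell type and less of a miRNA per vesicle cannot be told apart either.

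The cluster is transcribed as one precursor RNA and is best known from hair cells of the ear and photoreceptors of the eye, where miR-96 mutations cause hearing loss in mice and in humans. In mouse liver the locus is a target of SREBP-2, a transcription factor that is activated when sterol is low. The members miR-96 and miR-182 are known to repress Insig2 and Fbxw7, both brakes on SREBP activity. In mouse helper T cells miR-182 is known to repress Foxo1, a transcription factor that also governs glucose output in hepatocytes. A miRNA finds its targets mainly through its seed, bases 2 to 8 counted from the 5′ end.

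The mature guide sequences are shown because they set which targets the members can share. Below, 5′ to 3′ and from RefSeq on GRCm38.p6, the seed is in capitals.
miR-182-5p: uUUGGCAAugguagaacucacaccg
miR-183-5p: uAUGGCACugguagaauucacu
miR-96-5p: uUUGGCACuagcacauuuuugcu
The 3 members carry 3 different seeds of related sequence. Within the seed, miR-182-5p and miR-96-5p differ at a single base (A8C, miR-182-5p first) and share 6 of 7 bases, miR-183-5p and miR-96-5p differ by A2U, and miR-182-5p and miR-183-5p differ by U2A and A8C. Over the whole molecule the order is another one: without gaps from the 5′ end, miR-182-5p and miR-183-5p are identical at 18 of 22 bases (81.8%), against 12 of 23 (52.2%) for miR-182-5p and miR-96-5p and 13 of 22 (59.1%) for miR-183-5p and miR-96-5p. In the RefSeq table miR-1271-5p of chromosome 13 has the same seed as miR-96-5p, but it has no entry of that name in the count table.

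The precursor hairpins, with the guide arm in capitals, show where each counted molecule is cut from. They lie on the minus strand of chromosome 6 of mm10, at chr6:30169668-30169737 for Mir183, chr6:30169446-30169551 for Mir96 and chr6:30165918-30165992 for Mir182.
Mir183: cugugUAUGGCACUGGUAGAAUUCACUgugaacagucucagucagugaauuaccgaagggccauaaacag
Mir96: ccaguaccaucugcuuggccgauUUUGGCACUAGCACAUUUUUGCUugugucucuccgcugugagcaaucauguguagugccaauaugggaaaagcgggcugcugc
Mir182: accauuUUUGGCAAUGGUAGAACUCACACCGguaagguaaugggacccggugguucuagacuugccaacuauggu
In GENCODE M21 none of the hairpins lies inside another gene. Mir183 and Mir96 are 116 bases apart, Mir182 follows after another 3453 bases, and all lie between the protein-coding genes Nrf1 and Ube2h. On the opposite strand, 3155 bases from Mir183, starts the long noncoding RNA gene Rncr4, first described in retina.

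Library totals ran from 641579 to 6888928 counts, and the deepest library was mouse 27 of 1 week. The hepatocyte miRNAs, led by miR-122-5p, summed to between 404000 and 984000 counts per 1000000 (CPM, scaled with TMM factors) over the 25 libraries, so the labelled tissue was evident. Against this background the cluster was rare. Over all libraries miR-182-5p held 0.00831% of counts, miR-183-5p 0.00657% and miR-96-5p 0.00324%, and by mean CPM they ranked 123, 135 and 186 among 1493 entries. Each mature miRNA is read from end to end, so CPM was not divided by length. Counts behind each value were 56 to 352 per library for miR-182-5p, 21 to 480 for miR-183-5p and 11 to 461 for miR-96-5p. The thinnest values were those of miR-96-5p at 6 weeks, 11 to 32 counts per library. In the table no entry with a mean count of at least 20 came within 0.3 log2 units of a member's count in every library. No such entry thus nearly repeated the counts of a member. This search does not find entries that vary with a member at another level.

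The passenger arms were nearly absent. Over the 25 libraries miR-182-3p had 4 counts, in 3 libraries, and miR-183-3p had 3 counts, in 2 libraries, or 0.0921% and 0.0873% of the counts of both arms of their hairpins. Neither was tested. The third passenger arm, miR-96-3p, has no entry of that name in the count table, and the results below are those of the guide arms.

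All 3 guide arms had their highest mean CPM at 14 months with TMM factors and with DESeq2 size factors, although with library totals alone miR-183-5p and miR-96-5p were highest at 1 week. With TMM factors all 5 miR-182-5p libraries of 14 months lay above all 20 younger ones, which 0.256% of tested entries did, and with library totals alone they did not. Values below are CPM with TMM factors, given by age from youngest to oldest.

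For miR-182-5p the 1-week mice had 75.0, 59.1, 71.6, 53.7 and 30.4 CPM, the lowest being mouse 27, and the 6-week mice 80.9, 91.4, 79.4, 87.6 and 58.3 CPM. At 6 months the values were 73.6, 91.3, 69.3, 87.5 and 56.6 CPM, and at 12 months 101.3, 107.7, 67.1, 103.1 and 77.2 CPM. The 14-month mice had 118.7, 156.3, 141.1, 142.0 and 118.9 CPM, a range that no younger library reached. The mmu-miR-182-5p means were 58.0 ± 17.7 CPM in 1-week mice, 79.5 ± 12.8 in 6-week mice, 75.7 ± 14.1 in 6-month mice, 91.3 ± 18.0 in 12-month mice and 135.4 ± 16.3 in 14-month mice (SD, n = 5 each). The spread relative to the mean was smallest at the oldest age, with a coefficient of variation of 12.0%. In order of level, 1 week was followed by 6 months, 6 weeks, 12 months and 14 months, and no neighbours in that order differed in edgeR (adjusted p from 0.109 to 1).

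For miR-183-5p, the member transcribed first, the 1-week mice had 57.1, 35.8, 99.7, 61.3 and 45.2 CPM, and the 6-week mice 58.6, 70.2, 73.6, 43.4 and 50.6 CPM. At 6 months the values were 53.0, 79.2, 46.5, 60.9 and 20.2 CPM, the last being mouse 15 with 21 counts, and at 12 months 77.8, 63.7, 38.7, 65.0 and 33.6 CPM. The 14-month mice had 85.9, 123.6, 112.8, 67.9 and 71.6 CPM. The older libraries were thus high as a group but overlapped with every younger age. The mmu-miR-183-5p means were 59.8 ± 24.4 CPM in 1-week mice, 59.3 ± 12.8 in 6-week mice, 52.0 ± 21.6 in 6-month mice, 55.8 ± 18.9 in 12-month mice and 92.3 ± 24.8 in 14-month mice. In order of level 6 months was followed by 12 months, 6 weeks, 1 week and 14 months, and the 4 younger means lay closer together than the SD at any age.

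For miR-96-5p, the member known for hearing loss, the 1-week mice had 19.7, 25.1, 31.2, 18.2 and 43.5 CPM, the highest being mouse 27, and the 6-week mice 15.3, 31.0, 19.4, 10.6 and 19.0 CPM. At 6 months the values were 21.6, 12.1, 24.5, 27.1 and 19.2 CPM, and at 12 months 22.2, 23.4, 16.0, 47.6 and 19.6 CPM, with mouse 19 apart from the others. The 14-month mice had 40.3, 37.8, 68.6, 26.8 and 29.1 CPM, of which 68.6 CPM in mouse 23 was the highest of all 25 libraries. The mmu-miR-96-5p means were 27.5 ± 10.3 CPM in 1-week mice, 19.1 ± 7.55 in 6-week mice, 20.9 ± 5.75 in 6-month mice, 25.8 ± 12.5 in 12-month mice and 40.5 ± 16.7 in 14-month mice. Every 14-month library but those of mice 24 and 25 lay above all 6-week libraries. Summed over the 3 members, the cluster had 219.7 to 322.5 CPM in the 14-month libraries, against 96.0 to 215.7 CPM in the 20 younger ones with TMM factors. The sums overlapped with DESeq2 size factors (198.7 to 318.8 CPM at 14 months, 90.7 to 253.1 CPM in younger libraries) and with library totals alone (162.9 to 300.1 CPM at 14 months, 87.6 to 299.8 CPM in younger libraries), both times with a 1-week library as the highest of the younger ones.

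**Figure D1:**
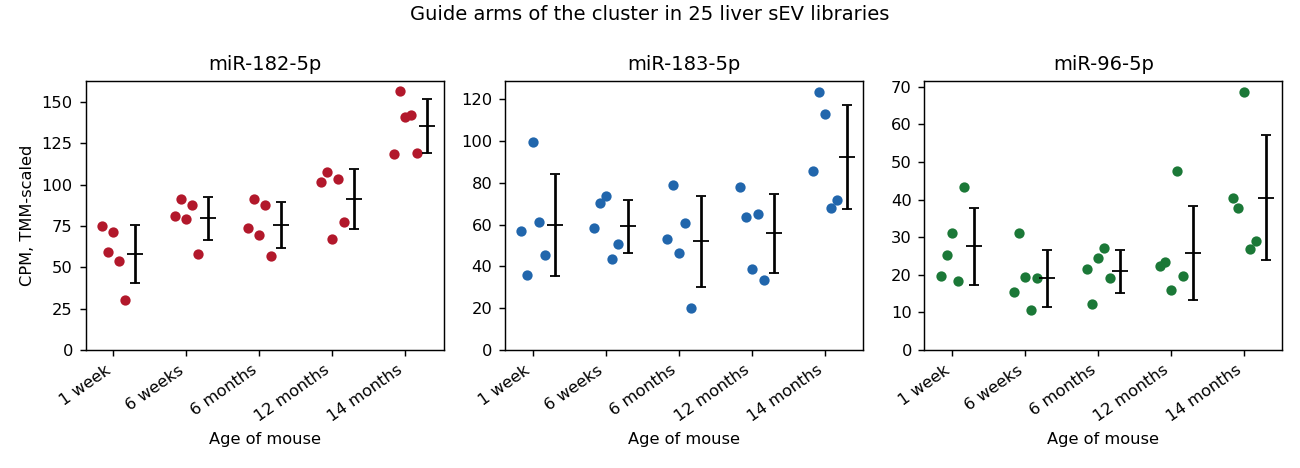
CPM (TMM-scaled, linear axis from 0) of each guide arm by age of mouse. Points are single libraries, 5 per age, and the bar beside them is the mean ± SD. The 14-month libraries of miR-182-5p, from 118.7 to 156.3 CPM, lie above all others (not so with library totals alone), while those of miR-183-5p and miR-96-5p overlap with younger ages.

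Whether a member differed with age at all was asked with an F test over the 5 ages in edgeR, in which 75.4% of all tested entries passed. Against that share, 2 of the 3 members passed: miR-182-5p (F = 9.08, adjusted p = 0.000212) and miR-96-5p (F = 3.17, adjusted p = 0.0409). For miR-183-5p the test gave F = 2.40 (adjusted p = 0.0965). The miR-96-5p call was lost on leaving out mouse 6, 8, 9, 10, 12, 15, 21, 22 or 23 (adjusted p from 0.0520 to 0.177, the last without mouse 23), and miR-183-5p was called without mouse 4, 12, 14, 18, 19, 24 or 25 (adjusted p from 0.0404 to 0.0496). Of the 3, only miR-182-5p kept its side under every left-out mouse, and with library totals alone it was not called (adjusted p = 0.0923), while miR-183-5p (adjusted p = 0.0367) and miR-96-5p (adjusted p = 0.00673) were.

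The comparison of 14 months with 6 weeks sets the oldest mice against young adults. All 3 members had a positive log2 fold change, miR-182-5p rose and the other two did not pass the test. For miR-182-5p the mean was 135.4 CPM at 14 months and 79.5 CPM at 6 weeks, a log2 fold change of 0.77 ± 0.22 (SE, adjusted p = 0.0445), and the libraries of these ages did not overlap with TMM factors, as in 5.88% of tested entries, but did with library totals alone. For miR-96-5p it was 1.11 ± 0.36 (adjusted p = 0.0860), the largest of the 3 and the least precise, and for miR-183-5p 0.64 ± 0.32 (adjusted p = 0.209). In this contrast 3.84% of tested entries were called and 3.32% were called higher, and the median log2 fold change was -0.04 over all tested entries, against 0.77 over the members.

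The miR-182-5p call stood close to the threshold. It was lost without mouse 3, 6, 7, 8, 9, 10, 11, 16, 17, 21, 22, 23, 24 or 25, at log2 fold changes of 0.69 to 0.85 and adjusted p of up to 0.106. It was also lost in edgeR with DESeq2 size factors (0.74, adjusted p = 0.0774), with limma-voom (0.79, adjusted p = 0.0650), with no filter on low counts (0.87, adjusted p = 0.124) and with library totals alone (0.51, adjusted p = 0.198). It held in DESeq2 (0.75, adjusted p = 0.0269), in the 20 adult libraries (0.71, adjusted p = 0.0194) and with the 2 ages alone (0.68, adjusted p = 0.0245). It also held with depth (log2 library total) as a covariate (1.09, adjusted p = 0.0146). Totals were 641579 to 1738208 counts at 6 weeks and 1543907 to 3989776 at 14 months. Depth thus went along with age, and the covariate can separate the 2 only in part. For miR-96-5p the call was gained without mouse 7 (1.33, adjusted p = 0.0425). Its direction and that of miR-183-5p were positive in all 33 alternatives.

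Between consecutive adult ages no member passed. From 6 weeks to 6 months the log2 fold change was -0.06 ± 0.22 for miR-182-5p, -0.18 ± 0.32 for miR-183-5p and 0.17 ± 0.36 for miR-96-5p, and from 6 to 12 months 0.26 ± 0.22, 0.08 ± 0.32 and 0.29 ± 0.35 in the same order. The adjusted p was 0.849 or more for each, where 1.79% of entries were called at 6 months against 6 weeks and, by edgeR, DESeq2 and limma-voom, none at 12 months against 6 months (28 at an unadjusted p under 0.05, and 3 called with no filter). Leaving out mouse 15 turned the signs of miR-182-5p and miR-183-5p at 6 months against 6 weeks (0.021 and 0.023). At 14 months against 12 months the values were 0.57 ± 0.22 for miR-182-5p, 0.74 ± 0.31 for miR-183-5p and 0.65 ± 0.34 for miR-96-5p. Their unadjusted p were 0.0135, 0.0256 and 0.0655, and the adjusted p was 1 for each. In that contrast edgeR called none of the 391 entries, 8 had an unadjusted p under 0.05, and DESeq2 and limma-voom called none either.

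At 14 months against 6 months the members were at 0.84 ± 0.22 for miR-182-5p, 0.82 ± 0.31 for miR-183-5p and 0.94 ± 0.35 for miR-96-5p, with adjusted p of 0.281, 0.594 and 0.594. Again edgeR called no entry, 30 had an unadjusted p under 0.05, and DESeq2 and limma-voom called none. For miR-182-5p a call appeared with depth as a covariate (1.02, adjusted p = 0.0343) and without mouse 27 (0.85, adjusted p = 0.0340). At 12 months against 6 weeks the values were 0.20 ± 0.22 for miR-182-5p, -0.10 ± 0.32 for miR-183-5p and 0.46 ± 0.36 for miR-96-5p, and none passed (adjusted p from 0.477 to 0.883), where 5.63% of entries were called.

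A linear contrast over the 4 adult ages in order asked for a linear trend through adult life. It cannot show whether the level moved in the same direction at every step. It treats each age as 1 step, although the steps span different times. Per step, the trend of miR-182-5p was 0.26 ± 0.07 on the log2 scale (adjusted p = 0.0338), in a contrast where 5.37% of tested entries were called and 3.84% were called higher. Its single changes were -0.06 from 6 weeks to 6 months, 0.26 from 6 to 12 months and 0.57 from 12 to 14 months, so the last was the largest. For miR-96-5p the step was 0.36 ± 0.11 (adjusted p = 0.0558) and for miR-183-5p 0.20 ± 0.10 (adjusted p = 0.207). The miR-182-5p call was lost without mouse 6, 8, 10 or 23 (adjusted p from 0.0511 to 0.0613), with no filter (adjusted p = 0.0668) and when scaled by library totals (adjusted p = 0.151). A call of the miR-96-5p step appeared without mouse 5, 7, 13, 14, 16, 18, 20, 22, 24 or 27 (adjusted p from 0.0334 to 0.0497).

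How miR-182-5p compares with the rest of the table in the 14-month libraries was described by a count chosen after its values were seen. It was the single entry of 391 (0.256%) whose 5 libraries of 14 months all lay above all 20 younger ones with TMM factors, and likewise with DESeq2 size factors. With library totals alone no entry met this, and miR-182-5p had 88.2 to 133.9 CPM at 14 months, against 46.9 to 127.1 CPM in the younger libraries. Set against 6 weeks only, 23 entries (5.88%) had no overlap with TMM factors, 15 (3.84%) with DESeq2 size factors and 8 (2.05%) with library totals alone. Of the members, miR-182-5p was among the first and second of these counts and not the third.

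The comparison with 1 week rested on the scaling for each member. TMM factors were 1.30 to 1.78 in the 1-week libraries and 0.720 to 1.08 in the adult ones, and library totals alone moved the median of all tested entries by -0.65 at 6 weeks and -0.91 at 14 months relative to 1 week. DESeq2 size factors moved these medians by -0.46 and -0.49. The values that follow are to be read against these shifts.

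At 6 weeks against 1 week no member passed with TMM factors, in a contrast where 71.9% of entries were called and 36.8% were called lower. The log2 fold change was 0.45 ± 0.22 for miR-182-5p (adjusted p = 0.0654), -0.02 ± 0.31 for miR-183-5p (adjusted p = 0.959) and -0.56 ± 0.35 for miR-96-5p (adjusted p = 0.152). With library totals alone they were -0.22, -0.65 and -1.22, and miR-96-5p was called (adjusted p = 0.00439), as it was with DESeq2 size factors (-1.02, adjusted p = 0.0130) and in DESeq2 (-1.03, adjusted p = 0.00763). The means of miR-96-5p with library totals alone were 18.7 ± 7.00 CPM at 6 weeks and 43.0 ± 16.2 CPM at 1 week. The sign of the miR-182-5p change turned with both of the other scalings, and that of miR-96-5p was negative under all 3. With limma-voom miR-182-5p was called higher at 6 weeks (0.54, adjusted p = 0.0471), and in edgeR it was so without mouse 1, 4, 10, 18 or 19 (0.52 to 0.58, adjusted p from 0.0273 to 0.0439).

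At 14 months against 1 week miR-182-5p rose by 1.22 ± 0.22 (adjusted p = 1.63e-05), in a contrast where 72.9% of entries were called and 35.5% were called higher. With DESeq2 size factors it was 0.73 (adjusted p = 0.00485) and with library totals alone 0.30 (adjusted p = 0.279), with the same direction under all 3 scalings. For miR-183-5p the value was 0.63 ± 0.31 (adjusted p = 0.0690) and for miR-96-5p 0.55 ± 0.33 (adjusted p = 0.133), and both signs turned with library totals alone (-0.24 and -0.33). For miR-183-5p the call was gained without mouse 4, 5, 14, 15, 18, 19, 20, 24 or 25 (0.67 to 0.90, adjusted p from 0.0129 to 0.0337), and for miR-96-5p without mouse 27 (0.78, adjusted p = 0.0419). At 12 months against 1 week 71.6% of entries were called and 33.2% were called higher, among them miR-182-5p at 0.65 ± 0.22 (adjusted p = 0.00886). It was at 0.18 with DESeq2 size factors (adjusted p = 0.477) and at -0.16 with library totals alone. At 6 months against 1 week 74.7% of entries were called and no member passed with TMM factors (0.39 ± 0.22 for miR-182-5p, -0.20 ± 0.31 for miR-183-5p and -0.39 ± 0.34 for miR-96-5p). Lower calls of miR-183-5p and miR-96-5p at 6 months appeared with both other scalings.

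**Figure D2:**
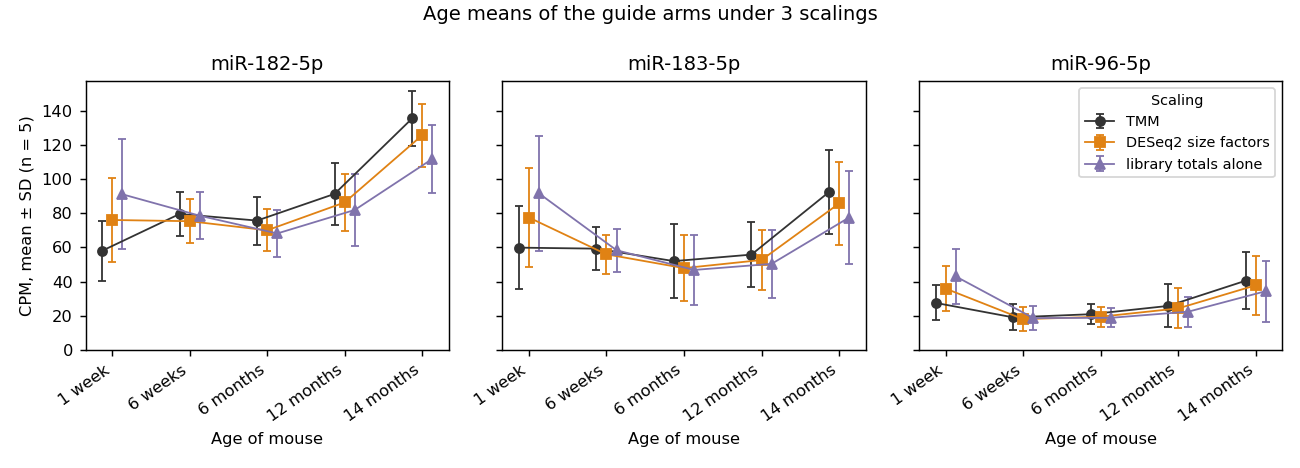
Mean CPM ± SD (n = 5 per age, linear axis from 0) of each guide arm by age under TMM factors, DESeq2 size factors and library totals alone. The 3 scalings part most at 1 week, with means for miR-182-5p of 58.0, 76.0 and 91.1 CPM in that order.

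Since the members come from one transcript, their ratio within a library was set out, a quantity that no scaling changes. The log2 ratio of miR-183-5p to miR-182-5p counts was 0.03 ± 0.56 in 1-week mice, -0.43 ± 0.35 in 6-week mice, -0.65 ± 0.48 in 6-month mice, -0.76 ± 0.30 in 12-month mice and -0.58 ± 0.31 in 14-month mice. In 3 of 5 libraries of 1 week miR-183-5p had more counts than miR-182-5p, and in none of the 20 adult libraries. The difference was -0.46 at 6 weeks against 1 week (exact two-sided permutation p = 0.143) and -0.15 at 14 months against 6 weeks (exact p = 0.476), or adjusted p = 0.286 and 0.476 over the 6 ratio tests.

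The log2 ratio of miR-96-5p to miR-182-5p was -1.08 ± 0.94 in 1-week mice, -2.10 ± 0.60 in 6-week mice, -1.86 ± 0.57 in 6-month mice, -1.90 ± 0.45 in 12-month mice and -1.81 ± 0.53 in 14-month mice. Mouse 27 of 1 week, at 0.51, was the one library of 25 with more miR-96-5p than miR-182-5p counts, and the other 1-week libraries lay between -1.92 and -1.20. At 6 weeks against 1 week the difference was -1.02 (exact two-sided permutation p = 0.0476, adjusted p = 0.214), and -0.62 without mouse 27. At 14 months against 6 weeks it was 0.29 (exact p = 0.452, adjusted p = 0.476). The third ratio, of miR-96-5p to miR-183-5p, differed by -0.56 (exact p = 0.206, adjusted p = 0.310) and 0.44 (exact p = 0.0714, adjusted p = 0.214) in these comparisons. None of the 6 ratio differences passed the adjusted threshold, where 0.00794 is the smallest p that 5 against 5 libraries allow.

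**Figure D3:**
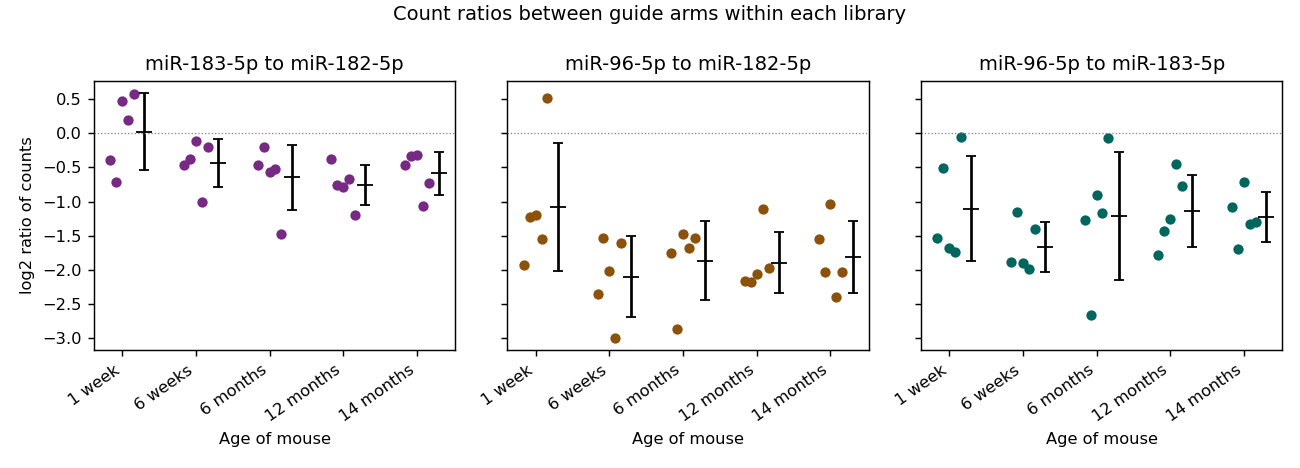
Log2 ratio of counts between pairs of guide arms within each library, by age of mouse. Points are libraries, the bar beside them is the mean ± SD (n = 5), and the dotted line marks equal counts. Above that line lie 3 points for miR-183-5p to miR-182-5p and 1 for miR-96-5p to miR-182-5p, each from a 1-week library.

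From mouse to mouse within an age, miR-182-5p and miR-183-5p varied together more than either did with miR-96-5p. After subtraction of each age's mean log2 CPM, Pearson r over the 25 libraries was 0.615 for miR-182-5p and miR-183-5p (Spearman rho 0.664), 0.265 for miR-183-5p and miR-96-5p (rho 0.375) and -0.074 for miR-182-5p and miR-96-5p (rho 0.028). Without mouse 27 these r were 0.693, 0.341 and 0.216 over 24 libraries. These are descriptions, since 2 miRNAs of a library share its depth and scaling. Counts of miR-96-5p were the lowest among the members (1691 in total), and the part of counting error in its r was not tested. The relation to depth differed by member. Within ages r with log2 library total was -0.525 for miR-182-5p, -0.324 for miR-183-5p and 0.112 for miR-96-5p, with rho of -0.365, -0.285 and 0.055. Mouse 27 had both the deepest library and, at 30.4 CPM, the lowest miR-182-5p of 1 week. Over the 20 adult libraries r was 0.270, -0.006 and 0.346. With depth as a covariate miR-182-5p was at 1.09 at 14 months against 6 weeks, a fit that separates depth from age only in part. The part of depth in the differences was not tested otherwise.

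Among 339 tested miRNA names, those nearest to a member were listed by the same measure. Nearest to miR-182-5p were miR-5099 (r = 0.743), miR-3068-3p (0.698), miR-677-5p (0.691), miR-690 (0.653) and miR-3473f (0.647). For miR-183-5p they were miR-872-5p (0.624), its cluster partner miR-182-5p (0.615), miR-3473f (0.608), miR-224-5p (0.591) and miR-676-5p (0.551). For miR-96-5p they were miR-296-3p (0.541), miR-137-3p (0.527), miR-122-3p (0.514), miR-365-3p (0.510) and miR-221-3p (0.508), with no cluster partner among them. By this measure, Pearson r, miR-183-5p ranked 6 for miR-182-5p, and miR-182-5p ranked 197 for miR-96-5p. Spearman rho gave another order for miR-182-5p. For the names listed as nearest to it rho was 0.638, 0.435, 0.455, 0.425 and 0.602 in that order, below the 0.664 of miR-183-5p.

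By the shape of the 5 age means other pairs were near. The root mean square difference of centred mean log2 CPM over the 5 ages was 0.207 between miR-183-5p and miR-96-5p, which made miR-96-5p the nearest of all names to miR-183-5p and miR-183-5p the second nearest to miR-96-5p, after miR-146a-5p (0.202). The profiles nearest to miR-182-5p were those of miR-500-3p (0.041), miR-34a-5p (0.097), which p53 induces, and miR-21a-3p (0.126). Here miR-183-5p ranked 15 for miR-182-5p and miR-182-5p ranked 9 for miR-183-5p, at 0.272, against 6 and 2 within ages. These profiles are TMM-scaled, so their 1-week value moves with the scaling described above.

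The other miRNAs that could bear on the cluster were followed as lists in the comparison of 14 months with 6 weeks. Of miR-33, which lies in an intron of Srebf2, the gene of SREBP-2, only miR-33-5p was tested, at 0.49 ± 0.49 (adjusted p = 0.559) and a mean of 5.72 CPM. In the miR-200 family, which marks epithelium such as bile ducts, none of 5 tested members passed, with a median of 0.13. Its most abundant member, miR-200a-3p, was at 0.33 ± 0.17 (adjusted p = 0.222). None of 5 other epithelial and endocrine miRNAs passed either (median -0.04), led by miR-203-3p at -0.04 ± 0.16. The summed level of the miR-200 family was 362 to 582 CPM in the 14-month libraries and 357 to 464 CPM in the 6-week libraries.

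Among 3 tested miRNAs of retina and neurons 1 rose, where 3.32% of all tested entries were called higher. It was miR-184-3p at 2.93 ± 0.63 (adjusted p = 0.00452), and the median of the list was -0.23. The summed level of that list was 32.0 to 48.9 CPM at 14 months and 29.4 to 46.0 CPM at 6 weeks, and the defining miR-204-5p and miR-211-5p of eye were without a count at 6 months. None of 6 lymphocyte miRNAs passed (median 0.27), with miR-155-5p at 1.47 ± 0.51 (adjusted p = 0.119), and the list summed to 1860 to 3440 CPM at 14 months and 1780 to 2490 CPM at 6 weeks. This sum was led by miR-142a-3p and miR-142a-5p, with means of 1438 and 933 CPM over all libraries. Whether its members come from lymphocytes or from other cells was not tested. In the adult step, where 3.84% of all tested entries were called higher, 2 of the 6 lymphocyte miRNAs were. They were miR-142a-5p by 0.25 ± 0.07 (adjusted p = 0.0405) and miR-155-5p by 0.59 ± 0.16 (adjusted p = 0.0339). With library totals alone no lymphocyte miRNA was called higher and 1 was called lower, miR-181a-5p by -0.35 (adjusted p = 0.0306). Among all tested entries 8 were then called higher and 13 lower. Whether any of these moved the cluster's level was not tested.

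None of 4 erythroid miRNAs (median -0.35), of 4 other miRNAs known to repress FOXO1 (median 0.06) and of 5 platelet miRNAs (median 0.15) passed. The FOXO1 and platelet lists share miR-223-3p. The platelet list was led by miR-126a-3p, at a mean of 40730 CPM, and the cell that its members come from was not tested. Of 8 hepatocyte miRNAs 1 rose, where 3.32% of all tested entries were called higher. It was miR-194-5p at 0.45 ± 0.12 (adjusted p = 0.0329), in a list with a median of 0.33. No hepatocyte miRNA was called with DESeq2 size factors or library totals alone. With library totals alone the medians of the miR-200, lymphocyte, FOXO1 and platelet lists were negative (-0.13, -0.002, -0.21 and -0.12).

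At 6 weeks against 1 week 35% of tested entries were called higher and 36.8% lower with TMM factors. With DESeq2 size factors 107 of the 391 tested entries were called higher and 165 lower. With library totals alone 88 were called higher and 178 lower. The lists are to be read against these values under the same scaling. None of the 3 cluster members passed with TMM factors, at a median of -0.02, against 0.12 over all tested entries. With DESeq2 size factors and with library totals alone the cluster's median was -0.47 and -0.65, with miR-96-5p called lower in both. All 5 tested members of the miR-200 family fell under each of the 3 scalings (median -1.39 with TMM factors, and -1.12 ± 0.17 for miR-200a-3p). With TMM factors 3 of 4 erythroid (median -1.72), 4 of 6 lymphocyte (median -0.74) and 1 of 3 retina and neuron miRNAs (median -0.78) fell, the last of these close to the share over all entries. Of 8 hepatocyte miRNAs 7 rose (median 1.05). Of the remaining lists, 1 of 5 other epithelial miRNAs rose and 2 fell (median -0.30), 2 of 4 FOXO1 miRNAs rose and 2 fell (median -0.18), 3 of 5 platelet miRNAs rose and 1 fell (median 0.79), and miR-33-5p was at 0.87 ± 0.49 (adjusted p = 0.113). The fall of miR-223-3p, by -2.30, is counted in both the FOXO1 and the platelet list. Scaled by library totals, all 4 erythroid miRNAs fell, 5 of 8 hepatocyte miRNAs rose (median 0.41), 1 platelet miRNA rose and 2 fell (median 0.14), and 3 of the other epithelial miRNAs fell. Whether any list differed from the cluster was not tested.

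**Figure D4:**
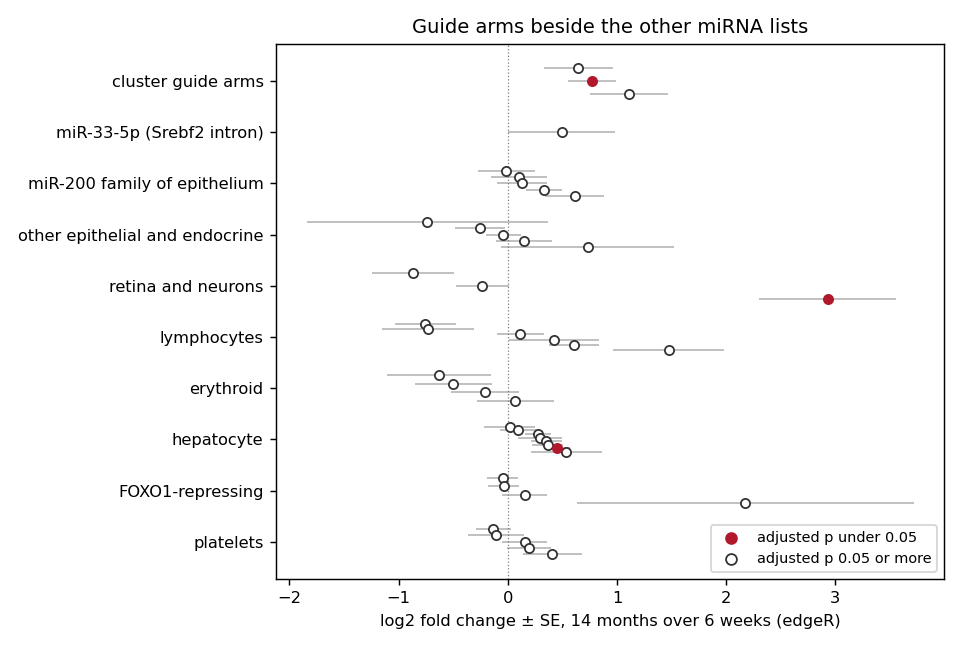
Log2 fold change of 14 months over 6 weeks with its SE (edgeR) for the tested members of each list, 1 point per miRNA and list. The point of miR-223-3p is drawn in both the FOXO1 and the platelet list. Filled points passed an adjusted p of 0.05. The cluster members lie at 0.64, 0.77 and 1.11, and the only other filled points are miR-184-3p (2.93) and miR-194-5p (0.45).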

How the data were processed

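Small RNA of liver sEVs was sequenced from 25 mice. Per the submitters' processing notes, Bowtie, edgeR and mm10 were used, without versions or roles, and the authors deposited 1 table of raw counts with 1493 entries. The miRNA annotation and any use of molecular identifiers are not given in the sources used here, so error from amplification is not covered. Per the file headers the table also holds each entry's length, an other value in bases; it equalled the RefSeq length for all 924 names that matched. Counts were analysed with edgeR 4.0.16 (R 4.3.3). Entries passing filterByExpr (391, of which 339 have miRNA names) entered 1 quasi-likelihood model of all libraries by age, with TMM factors, robust spread and Benjamini-Hochberg adjustment at 0.05 over all 391. The SE is the log2 fold change over the root of F. The comparisons share libraries with each other. The floor of 3 counts is 0.283 to 4.90 CPM. Log2 CPM has a prior count of 1. Ratios used counts plus 0.5 and exact permutation tests. Alternatives also used DESeq2 1.42.0 and limma 3.58.1. The model was tested on simulated data. The members and lists were chosen with earlier results of these data known. Named were the members, up to 4 most abundant miRNAs of each list, and the 5 and 3 nearest to each member. In the lymphocyte list miR-181a-5p and miR-181b-5p were named too, for their negative values. Mouse numbers are the replicate numbers of the labels. The p-values set age differences against the spread between the mice of an age, and cannot separate age from batch.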

Additional observations from a re-analysis of the deposited data

Results flagged for a closer look

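In each age, the library farthest from the others was examined for the 3 guide arms and their 3 ratios, 30 groups of 5 libraries, of which chance alone gives about 1 in 20. A library was singled out where its gap to the nearest other exceeded 0.71 of the group's range, and 3 were. For miR-96-5p at 12 months mouse 19 had 47.6 CPM, against 16.0 to 23.4 CPM in the other 4 mice (gap 0.764 of the range). The same library had a log2 ratio of miR-96-5p to miR-182-5p of -1.11, against -2.18 to -1.97 in the others (0.805). At 6 months the same ratio was -2.87 in mouse 12, against -1.75 to -1.48 in the others (0.808). The first and second of these are 1 library seen through 1 member.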

How the results depend on the processing

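No paired analysis was made, because no mouse number, the replicate number of the labels, occurs at 2 ages. Over the member and ratio results, 1088 alternative values kept their direction and their side of the threshold, 40 lost a call, 55 gained one and 50 changed sign. The 6 ratio differences kept both throughout. Values below are log2 fold changes unless named otherwise, and the cause of each change was not tested. Depth limits miR-96-5p most, with 11 counts in its thinnest library, and the members' place relative to 1 week rests on the scaling. Scaling also bears on the adult comparison. At 14 months against 6 weeks library totals alone moved the median of all tested entries by -0.26. With TMM factors 13 entries were called higher and 2 lower there, and with library totals alone 6 higher and 5 lower.

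With library totals alone miR-182-5p was at -0.22 for 6 weeks, -0.42 for 6 months, -0.16 for 12 months and 0.30 for 14 months, each against 1 week. It was at 0.51 for 14 months against 6 weeks and 0.18 per adult step, with F = 2.44 over ages. With the same totals miR-183-5p was at -0.97 for 6 months, -0.88 for 12 months and -0.24 for 14 months against 1 week, with F = 3.27, and miR-96-5p was at -1.22 for 6 weeks, -1.19 for 6 months, -0.94 for 12 months and -0.33 for 14 months against 1 week. DESeq2 size factors in edgeR put miR-182-5p at -0.016, -0.11 and 0.18 for 6 weeks, 6 months and 12 months against 1 week and 0.74 for 14 months against 6 weeks, miR-183-5p at -0.69 for 6 months against 1 week, and miR-96-5p at -1.02 and -0.88 for 6 weeks and 6 months against 1 week. DESeq2 itself put miR-182-5p at -0.018, -0.11 and 0.18 in those 3 comparisons with 1 week, miR-183-5p at -0.69 for 6 months against 1 week with a likelihood-ratio statistic of 11.7 over ages, and miR-96-5p at -1.03 and -0.88 for 6 weeks and 6 months against 1 week and 0.36 per step. In limma-voom miR-182-5p was at 0.79 for 14 months against 6 weeks and 0.54 for 6 weeks against 1 week, and miR-183-5p at 0.68 for 14 months and 0.050 for 6 weeks against 1 week, with F = 2.99.

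Without a filter miR-182-5p was at 0.41 for 12 months against 1 week, 0.87 for 14 months against 6 weeks and 0.30 per step, and miR-96-5p at 0.40 per step. With depth as a covariate miR-182-5p was at 1.02 for 14 months against 6 months and 0.068 for 6 months against 6 weeks, miR-183-5p at 0.15 for 12 months against 6 weeks with F = 3.33, and miR-96-5p at 0.014 for 12 months against 1 week with F = 2.08. A fit of the 2 ages compared put miR-182-5p at 0.45 for 12 months against 1 week, and the 20 adult libraries put miR-96-5p at 0.35 per step.

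Counts of called entries moved too. At 14 months against 6 weeks (15) they were 24 without a filter, 7 with the covariate, 23 in adult libraries and 28 with the 2 ages alone. At 12 months against 6 weeks (22) they were 36 in DESeq2, 8 with the covariate, 54 in adult libraries and 36 with the 2 ages alone. For the adult step (21) they were 35 in DESeq2, 36 without a filter, 6 with the covariate and 43 in adult libraries. At 6 months against 6 weeks (7) they were 3 with totals, 3 with the covariate and 15 in adult libraries. The covariate gave 1 at 14 months against 6 months, and no filter gave 3 at 12 months against 6 months.

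Leaving out 1 mouse at a time moved these counts between 15 and 37 for 12 months against 6 weeks, 0 and 1 for 14 months against 6 months, 8 and 22 for 14 months against 6 weeks, 1 and 13 for 6 months against 6 weeks, and 8 and 37 for the step. For miR-182-5p the ranges were 0.76 to 0.98 for 14 months against 6 months, 0.69 to 0.85 for 14 months against 6 weeks, -0.17 to 0.021 for 6 months against 6 weeks, 0.29 to 0.58 for 6 weeks against 1 week and 0.24 to 0.29 per step. For miR-183-5p they were -0.24 to 0.17, 0.49 to 0.90, -0.39 to 0.067 and -0.14 to 0.25 for 12 months, 14 months, 6 months and 6 weeks against 1 week, -0.11 to 0.33 for 12 months against 6 months, -0.24 to 0.12 for 12 months and -0.38 to 0.023 for 6 months against 6 weeks, and 1.45 to 3.24 for F. For miR-96-5p they were -0.33 to 0.20 for 12 months and 0.35 to 0.78 for 14 months against 1 week, 0.85 to 1.33 for 14 months against 6 weeks, 1.87 to 4.44 for F and 0.29 to 0.43 per step.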
